A study of Mus musculus with 9 samples.

Results

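Very small embryonic-like cells (VSEL) and haematopoietic stem cells (HSC) sorted from mouse bone marrow were compared on 6 of the 9 arrays of the series, those titled VSEL 1 to 3 and HSC 1 to 3. All of these libraries came from the marrow of C57BL/6 mice 4 weeks old. VSEL were sorted as Sca-1+Lin-CD45- cells and HSC as Sca-1+Lin-CD45+ cells, so CD45 alone separated the gates. The 3 remaining arrays held ESC-D3, an embryonic stem cell line of strain 129S2/SvPas, and are used here only to give the level of a gene in another cell type. Each library was made from 20 sorted cells lysed directly, with a T7-primed cDNA amplified by PCR, transcribed in vitro with biotin and hybridised to an Affymetrix mouse 430 2.0 array. The number of mice and any pooling are not stated, and separate animals are not recorded for the replicates of a group, so p-values reflect only how far these libraries lay apart, which can be technical. The comparison asks which genes, outside the usual lists of blood lineages, differ between the cells of the 2 gates.

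HSC sustain all blood lineages and are rare among marrow cells that carry CD45, the receptor tyrosine phosphatase of nucleated blood cells encoded by Ptprc. VSEL have been described as small marrow cells without CD45 that carry transcripts of pluripotency. Some of the genes described below belong to families that blood cells of different lineages use to different extents. Among these are interferon-inducible proteins, receptors of the tumour necrosis factor (TNF) family and membrane transporters. Others belong to general cell machinery, such as nucleoporins and RNA helicases.

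Expression is given on the log2 scale for each probe set, and a gene is read from its brightest probe set. VSEL arrays 2 and 3 correlated at 0.989 and differed more than 4-fold at 1 probe set, whereas each correlated with VSEL 1 at 0.831 to 0.838 with 4148 to 4232 such probe sets. The HSC arrays correlated at 0.927 to 0.947. VSEL arrays 2 and 3 were therefore averaged and counted as 1 library, called VSEL 2+3, which left 2 VSEL and 3 HSC libraries. Their values are given in the order VSEL 1, VSEL 2+3, then HSC 1, HSC 2 and HSC 3. The lower quartile of all genes lay at 4.72 and 4.77 in the VSEL libraries and at 4.5 to 4.54 in HSC, and this level stands for background here. A fold in parentheses gives the size of the difference between the group means, and one against a gene near background can be understated. Hybridisation controls were brighter on the VSEL arrays (11.31 to 11.73) than on the HSC arrays (10.31 to 10.68), and the upper quartile of all probe sets was lower (6.631 to 6.685 against 7.113 to 7.175). The part of these array-wide gaps in the results was not tested. In sorted pools, fewer cells of a type and less RNA per cell cannot be told apart.

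The 4 marker genes were given for this comparison beforehand, and CD45, encoded by Ptprc, set the gates. Their separation of the groups describes the comparison and is not independent evidence for it. Ptprc was at 3.59 and 3.25 in VSEL and 13.40, 13.68 and 13.54 in HSC, Fosb, an AP-1 subunit of the immediate early response, at 3.67 and 3.65 in VSEL and 12.81, 13.53 and 13.19 in HSC, and Cd3g, a chain of the T cell receptor complex, at 4.18 and 4.38 in VSEL and 12.55, 12.91 and 13.01 in HSC. All 3 lay at background in both VSEL libraries and were bright in every HSC library (1110-fold, 732-fold and 373-fold lower in VSEL, limma adjusted p = 0.00171, 0.00185 and 0.00185). Rag1, the recombinase subunit of lymphocyte precursors, ran the other way at 11 and 9.09 in VSEL and 2.96, 2.98 and 2.99 in HSC, 134-fold higher (adjusted p = 0.0131). Ptprc, Fosb and Cd3g kept their calls in every alternative. Rag1 lost its call without HSC 1, HSC 2 or HSC 3 (adjusted p up to 0.0672). Genes of haematopoietic stem and progenitor cells gave no single picture. Slamf1, a surface marker of these stem cells, was at 5.03 and 4.47 in VSEL and 6.11, 7.41 and 8.58 in HSC, without overlap (adjusted p = 0.131), and the progenitor receptor Flt3 at 7.03 and 6.91 in VSEL and 8.45, 8.45 and 6.96 in HSC, with overlap in HSC 3 (adjusted p = 0.302). Kit, the stem cell factor receptor, was at 7.36 and 6.66 in VSEL and 8.96, 7.57 and 8.48 in HSC and Cd34 at 4.53 and 10.58 in VSEL and 8.73, 7.09 and 6.04 in HSC, while Procr (5.92 and 5.97 in VSEL and 5.85, 4.88 and 5.17 in HSC), Mecom (5.36 and 5.94 in VSEL and 4.58, 5.07 and 5.07 in HSC) and Hlf (4.71 and 5.28 in VSEL and 6.86, 4.71 and 4.69 in HSC) stayed dim in both groups. None of these 7 genes passed the test, and Cd34 was above every HSC library in VSEL 2+3 and below every one in VSEL 1. The groups are called by their labels below.

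Across all 45037 probe sets, 762 (1.69%) were higher and 1673 (3.71%) lower in VSEL at an adjusted p under 0.05 (limma, Benjamini-Hochberg). Read as genes, 460 of 18193 (2.53%) were higher and 966 (5.31%) lower, 1426 (7.84%) in all. In all 1426 the VSEL and HSC libraries did not overlap. Lack of overlap therefore adds nothing to a call below. Some genes that were not called also lacked it, such as Slamf1, Kit, Procr and Mecom, and its share over all genes was not counted. The lower genes differed by more: their median difference was -3.06 on the log2 scale and 958 of them differed at least 2-fold, against a median of 1.79 and 379 genes for the higher ones. The median over all genes was 0.22. Among the 6302 genes with a mean of at least 8 in either group, 186 (2.95%) were higher and 824 (13.1%) lower, 16.0% together, and their median difference was -0.58. The counts moved with the libraries. Without VSEL 1 there were 261 higher and 599 lower genes, without VSEL 2+3 332 and 763, and without HSC 1, HSC 2 or HSC 3 136, 145 or 130 higher and 428, 563 or 523 lower. Such fits leave 2 residual degrees of freedom in place of 3. The balance moved with the scaling: 32.3% of the genes called were higher in the deposited values, 59.2% after a new quantile normalization of the 6 arrays, 32.9% after cyclic loess and 47.6% with each array centred on its ribosomal proteins, where the median over all genes was 0.16, 0.01 and 0.80. In all, 21 alternative settings were tried, and a statement below that a gene kept its call in every alternative covers the settings in which that gene was tested.

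The 2 VSEL libraries were less alike than the HSC libraries for many genes. VSEL 1 and VSEL 2+3 lay over 2 log2 units apart at 2617 genes, while the 3 HSC libraries spanned more than that at 1951.

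Markers of other cell types moved with the comparison and are given as the log2 of their summed linear values. T and NK cell markers were lower in VSEL (8.75 and 11.82 against 14.73 to 15.39 in HSC), and 6 of 9 were called lower, among them Il2rb at 5.21 and 5.16 in VSEL and 12.53, 12.81 and 12.70 in HSC and Klrd1 at 3.41 and 3.61 in VSEL and 10.92, 11.40 and 11.32 in HSC. Both VSEL libraries thus held the T and NK list below every HSC library, and 2 of its genes, Cd3g and Klrd1, lay at or under background in both. Erythroid markers were higher (15.84 and 14.18 against 10.48 to 11.57), with 3 of 7 called: Slc4a1, the band 3 anion exchanger, was at 14.18 and 13.04 in VSEL and 8.26, 8.56 and 10.12 in HSC, Alas2, the first enzyme of erythroid haem synthesis, at 13.43 and 12.33 in VSEL and 7.24, 8.82 and 9.03 in HSC, and Epb42, a protein of the red cell membrane skeleton, at 11.06 and 8.43 in VSEL and 2.70, 3.10 and 3.01 in HSC. Hba-a1, an alpha globin gene of the erythroid list, lay at or under background in every VSEL and HSC library. B lineage markers overlapped between groups (15.64 and 14.48 against 13.66 to 14.68), with Rag1 and Vpreb3 of 9 called higher. Ebf1 of the B lineage list lay at or under background in every VSEL and HSC library. Granulocyte and monocyte markers were bright in both and overlapped (16.38 and 17.82 against 16.96 to 17.2), and 1 of 11 was called, lower in VSEL. Megakaryocyte markers were dim throughout (8.91 and 9.08 against 9.4 to 10.0), with 1 of 6 called lower. Endothelial markers were at 10.52 and 11.45 against 8.53 to 8.56, and none of 6 was called. Markers of mesenchymal stroma were at 10.55 and 10.67 against 8.08 to 8.47, with 4 of 10 called higher, and those of embryonic stem cells at 13.45 and 13.6 against 9.34 to 9.55, with 7 of 8 called higher. The ESC arrays held the last 2 lists at 12.68 to 12.81 and 15.98 to 16.02. The part of these cell types in the results below was not tested.

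**Figure D1:**
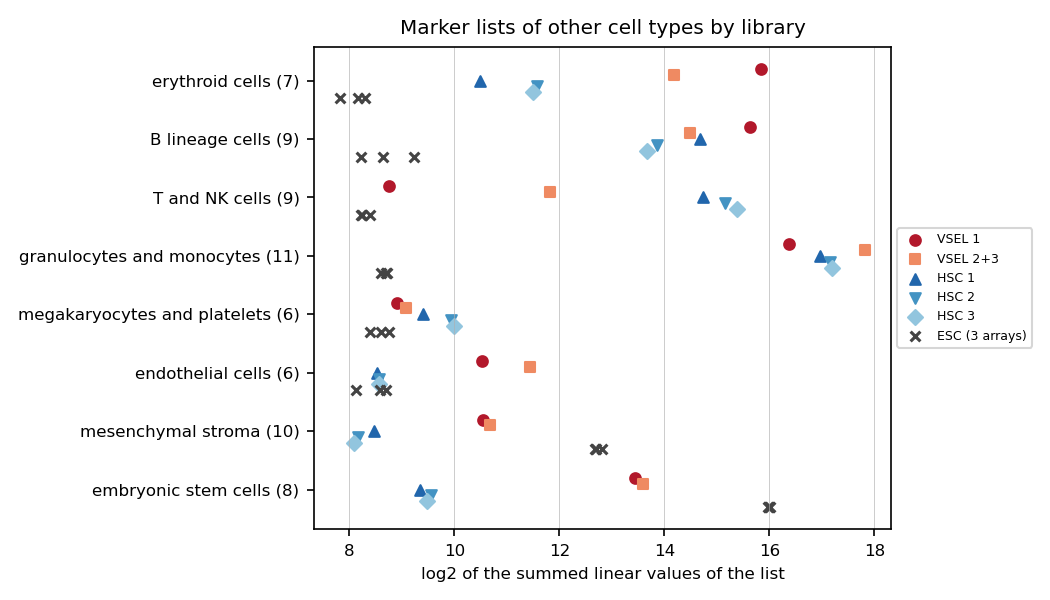
Summed markers of 8 other cell types in each library, as the log2 of the sum of linear values, with the number of markers measured in parentheses. Circles and squares are the 2 VSEL libraries, triangles and diamonds the 3 HSC libraries and crosses the 3 ESC arrays. The T and NK list lies at 8.75 and 11.82 in VSEL and at 14.73 to 15.39 in HSC, the erythroid and embryonic lists lie higher in VSEL, and the granulocyte list overlaps.

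Of the 460 genes higher in VSEL, 291 had a mean in ESC-D3 above their VSEL mean. With a VSEL mean of at least 8, there were 85 such genes and 101 others. In the first set the median distance of VSEL 1 from the ESC mean was -2.42 and that of VSEL 2+3 was -2.35, and the 2 VSEL libraries differed from each other by a median of 0.19. In the second set the corresponding values were 2.09, 2.04 and 0.41. These values are a description: the call favours genes on which the 2 VSEL libraries agree, and the sign of the distance is set by how the sets were chosen. Markers of embryonic stem cells such as Pou5f1, Nanog and Zfp42 are themselves members of the first set, so their rise is no separate observation. Their part in the result, and whether RNA carried over between libraries adds to these values, was not tested.

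Igfbp2, a secreted binder of insulin-like growth factors, had the largest positive difference of the genes named outside the lineage lists, which also hold genes of pluripotency and the cell cycle, at 10.11 and 9.69 in VSEL and 4.02, 4.25 and 5.03 in HSC and 12.69 in ESC. Both VSEL libraries stood far above all HSC libraries, by 5.47 ± 0.37 (SE) on the log2 scale (44.2-fold, adjusted p = 0.0081). Jam2, a junctional adhesion molecule of endothelial and epithelial contacts, was at 9.54 and 9.44 in VSEL and 4.24, 4.67 and 4.55 in HSC, again without overlap (32.0-fold, adjusted p = 0.00284), and 3 of its 4 other probe sets were called the same way. Slc38a4, an amino acid transporter, was at 8.93 and 8.54 in VSEL and 3.91, 3.86 and 3.88 in HSC (28.9-fold, adjusted p = 0.00251). The basement membrane was represented by Nid2, a nidogen, at 8.66 and 8.30 in VSEL and 4.00, 3.88 and 3.65 in HSC, and Lama1, the alpha 1 chain of laminin, at 8.96 and 8.90 in VSEL and 4.24, 4.68 and 4.78 in HSC, which were 24.9-fold and 20.6-fold higher (adjusted p = 0.00345 and 0.00432). Upp1, a uridine phosphorylase, was at 9.76 and 9.86 in VSEL and 5.16, 5.67 and 5.44 in HSC (20.9-fold, adjusted p = 0.00389), Mymx, a micropeptide of myoblast fusion, at 8.93 and 9.14 in VSEL and 4.06, 4.71 and 4.66 in HSC (23.5-fold, adjusted p = 0.00608) and Trap1a, a tumour rejection antigen, at 8.50 and 8.33 in VSEL and 3.81, 3.65 and 3.74 in HSC (25.6-fold, adjusted p = 0.00195). All 8 genes lay at 5.67 or below in every HSC library, and all were brighter still in ESC, between 11.27 and 12.79. Igfbp2, Jam2, Slc38a4, Nid2, Lama1, Upp1, Mymx and Trap1a kept their calls in every alternative.

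The other 7 of the 15 genes with the largest positive differences outside the lineage lists were lower in ESC-D3 than in VSEL. Ypel4 was at 10.01 and 9.65 in VSEL and 4.92, 4.74 and 4.47 in HSC and at 4.80 in ESC, so both VSEL libraries lay above all HSC libraries and the ESC mean, and above HSC by 5.12 ± 0.21 (SE) (34.8-fold, adjusted p = 0.00345). Ackr1, the atypical chemokine receptor known as the Duffy antigen of red cells and venular endothelium, was at 10.47 and 10.33 in VSEL and 5.62, 5.84 and 5.60 in HSC and 6.05 in ESC, without overlap (26.3-fold, adjusted p = 0.00214). Abcb4, a phospholipid translocator, was at 12.17 and 11.96 in VSEL and 6.88, 6.5 and 7.59 in HSC (33.8-fold, adjusted p = 0.00948). Tifa, an adaptor that binds TRAF proteins, was at 11.18 and 10.28 in VSEL and 5.54, 5.32 and 6.61 in HSC (30.0-fold, adjusted p = 0.0211), and Ctbs, a lysosomal chitobiase, at 10.20 and 9.07 in VSEL and 4.25, 4.41 and 5.54 in HSC (29.9-fold, adjusted p = 0.0256). Slc22a4, a carrier of organic cations and ergothioneine, was at 9.10 and 10.04 in VSEL and 4.82, 3.34 and 5.57 in HSC (31.7-fold, adjusted p = 0.0471), and Tmem120b at 10.80 and 9.09 in VSEL and 5.60, 5.64 and 5.78 in HSC (19.3-fold, adjusted p = 0.0321). For each of these genes both VSEL libraries lay above all HSC libraries, but among the 7 the VSEL libraries lay furthest apart for Tmem120b and the HSC libraries for Slc22a4. Ypel4 and Ackr1 kept their calls in every alternative. Abcb4 lost its call without VSEL 1 or HSC 1 (adjusted p up to 0.0556). Tifa lost its call without VSEL 1, VSEL 2+3, HSC 1 or HSC 2 (adjusted p up to 0.0897) and in 1 other alternative (at 0.0583). Ctbs lost its call without VSEL 1, VSEL 2+3, HSC 1 or HSC 2 (adjusted p up to 0.0937) and in 1 other alternative (at 0.0527). Slc22a4 lost its call without VSEL 1, VSEL 3, VSEL 2+3, HSC 1, HSC 2 or HSC 3 (adjusted p up to 0.138) and in 3 other alternatives (up to 0.0934). Tmem120b lost its call without HSC 1, HSC 2 or HSC 3 (adjusted p up to 0.116). The erythroid list given above was higher in both VSEL libraries as well, and its part in these differences was not tested.

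**Figure D2:**
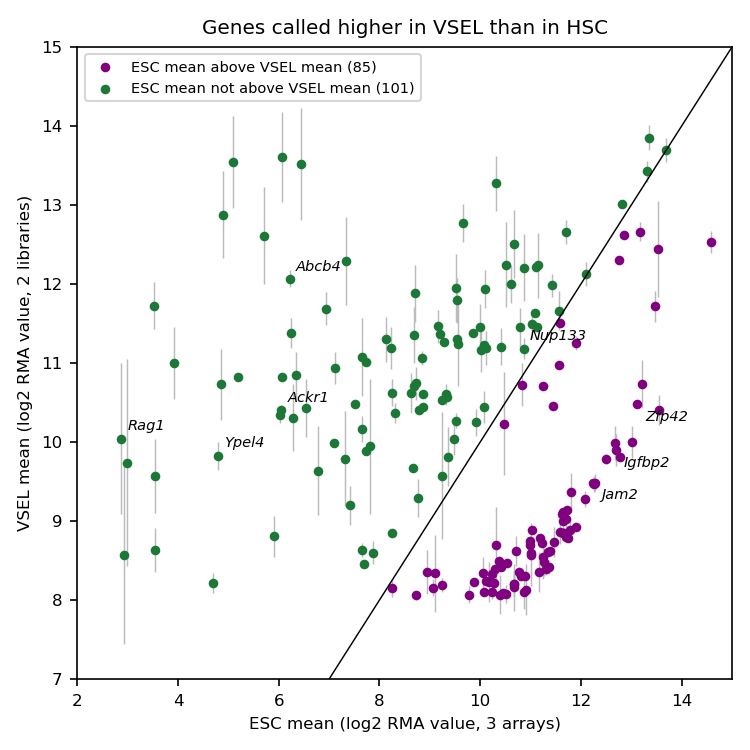
Mean of the 2 VSEL libraries against the mean of the 3 ESC arrays, both as log2 values, for the 186 genes called higher in VSEL with a VSEL mean of at least 8. Bars span the 2 VSEL libraries and the line marks equal values. The 85 genes brighter in ESC (purple) lie in a band below the line with short bars, and the 101 others (green) scatter above it with longer bars.

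The largest negative differences outside the lineage lists included genes of lymphocytes. Trbv1, a variable segment of the T cell receptor beta chain, was at 4.37 and 4.48 in VSEL and 13.04, 13.70 and 13.67 in HSC, and Igha, the constant region of the IgA heavy chain, at 6.92 and 7.77 in VSEL and 14.29, 13.81 and 13.96 in HSC. Neither overlapped between groups (528-fold and 102-fold lower, adjusted p = 0.002 and 0.00432). Both are antigen receptor genes that the lineage lists used to choose genes did not hold. Of the chemokine receptors that activated T and NK cells carry, Cxcr6 was at 3.82 and 3.91 in VSEL and 12.16, 12.06 and 11.70 in HSC and Cxcr3 at 5.91 and 5.89 in VSEL and 12.60, 12.54 and 12.19 in HSC (277-fold and 93.4-fold lower in VSEL, adjusted p = 0.00185 and 0.00185). The receptors Gpr18 (5.43 and 5.30 in VSEL and 11.31, 12.03 and 12.29 in HSC) and Gpr183 (4.92 and 5.01 in VSEL and 10.80, 12.15 and 11.30 in HSC, a receptor for oxysterols) showed the same order without overlap (91.2-fold and 87.7-fold, adjusted p = 0.00493 and 0.00828). Adcy7, an adenylyl cyclase, was at 4.69 and 6.17 in VSEL and 12.56, 12.94 and 12.95 in HSC, Rasal3, a Ras GTPase-activating protein, at 6.30 and 6.11 in VSEL and 13.27, 13.27 and 13.28 in HSC and Lpxn, a paxillin-like adaptor, at 4.58 and 3.44 in VSEL and 10.63, 10.57 and 10.56 in HSC. Of the 3, Rasal3 had the narrowest HSC values, and they were 167-fold, 135-fold and 95.4-fold lower (adjusted p = 0.00786, 0.00171 and 0.00608).

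Epsti1, an interferon-inducible gene, was at 3.69 and 3.82 in VSEL and 11.38, 12.18 and 12.24 in HSC, and Gbp8, a guanylate-binding protein, at 2.99 and 2.98 in VSEL and 10.09, 9.57 and 9.29 in HSC. In both VSEL libraries they lay below the background level of 4.72 (289-fold and 102-fold lower, adjusted p = 0.00343 and 0.00345). Dock10, a guanine nucleotide exchange factor, was at 3.29 and 3.36 in VSEL and 10.16, 11.09 and 11.26 in HSC (183-fold, adjusted p = 0.00479). Ankrd44 was at 3.22 and 3.97 in VSEL and 11.41, 11.73 and 11.49 in HSC (247-fold, adjusted p = 0.00274), and Ipcef1, a partner of cytohesin exchange factors, at 3.41 and 3.55 in VSEL and 9.80, 9.34 and 10.71 in HSC (88.8-fold, adjusted p = 0.00847). Igha, Cxcr6, Cxcr3, Gpr18, Adcy7, Rasal3, Lpxn, Epsti1, Gbp8, Dock10 and Ankrd44 kept their calls in every alternative. Trbv1 was read from an _x_at probe set, a kind that can match other transcripts, and lost its call without _x_at and _s_at sets (adjusted p = 0.295). Its other probe set was at 4.63 and 4.78 in VSEL and 5.02, 5.86 and 7.45 in HSC, a difference of -1.41. Gpr183 lost its call without VSEL 1 (adjusted p up to 0.0515). Ipcef1 lost its call without VSEL 1 (adjusted p up to 0.0527). Other probe sets of Gpr183 and Ipcef1 differed mostly or only in the opposite direction, and none of these was called. All of these genes were dim in ESC-D3 as well, at 3.03 to 6.71. The T and NK markers were also lower in both VSEL libraries, and their part in these differences was not tested.

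**Figure D3:**
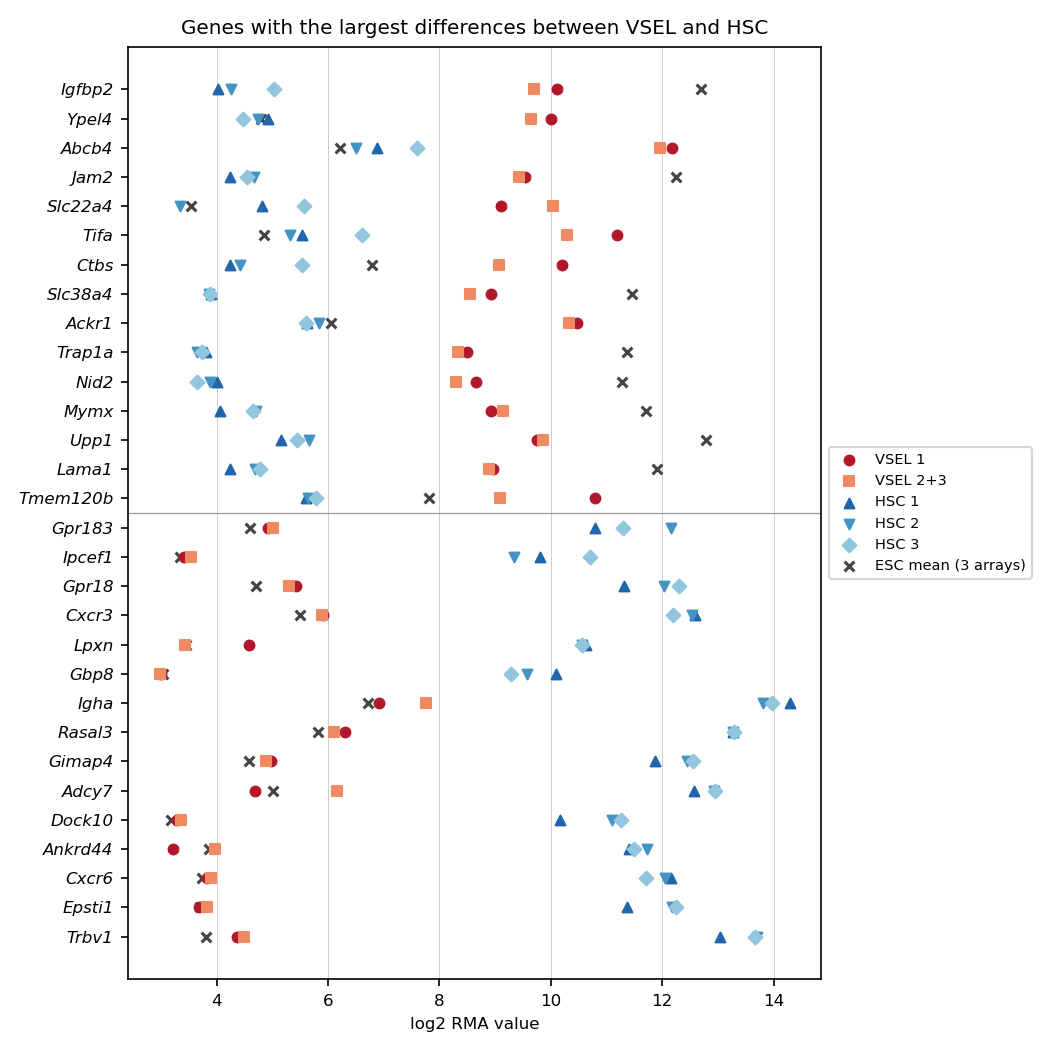
Log2 values of the 15 genes with the largest positive (above the line) and the 15 with the largest negative difference (below it) outside the lineage lists, by library. In each row the 2 VSEL libraries (circle, square) and the 3 HSC libraries (triangles, diamond) do not overlap. Crosses give the ESC mean, which lies right of VSEL for 8 of the upper genes and near the VSEL values for the lower ones.

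The family with the highest share of members called was Gimap, the GTPases of immunity-associated proteins, small GTP-binding proteins that maintain the survival of lymphocytes and are encoded side by side on mouse chromosome 6. Because 6 of these 8 neighbours were called lower, the 250 bases before the start are shown for the member with the largest difference (Gimap4), the member that stayed bright in VSEL (Gimap6), the member that was bright in VSEL 1 but not VSEL 2+3 (Gimap1) and the member with most motif matches (Gimap7). The sequences are those of RefSeq on GRCm38.p6, printed 5′ to 3′ on the strand of the gene, with the letters of matched motifs in capitals.
Gimap4, chr6:48684328-48684577, plus strand: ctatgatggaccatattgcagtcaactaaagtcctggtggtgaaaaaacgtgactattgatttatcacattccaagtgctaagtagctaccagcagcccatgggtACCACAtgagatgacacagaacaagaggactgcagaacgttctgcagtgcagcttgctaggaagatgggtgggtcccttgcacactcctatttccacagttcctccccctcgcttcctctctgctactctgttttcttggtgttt
Gimap6, chr6:48708245-48708494, minus strand: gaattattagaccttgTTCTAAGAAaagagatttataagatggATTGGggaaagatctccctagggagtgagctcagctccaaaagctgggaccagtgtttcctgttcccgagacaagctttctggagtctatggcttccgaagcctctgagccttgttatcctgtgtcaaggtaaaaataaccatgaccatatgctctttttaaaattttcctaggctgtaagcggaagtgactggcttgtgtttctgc
Gimap1, chr6:48738797-48739046, plus strand: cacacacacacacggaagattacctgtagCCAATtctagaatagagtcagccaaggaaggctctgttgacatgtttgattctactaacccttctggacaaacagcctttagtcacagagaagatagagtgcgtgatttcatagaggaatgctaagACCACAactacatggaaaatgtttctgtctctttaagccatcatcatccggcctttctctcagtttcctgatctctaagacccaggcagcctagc
Gimap7, chr6:48718371-48718620, plus strand: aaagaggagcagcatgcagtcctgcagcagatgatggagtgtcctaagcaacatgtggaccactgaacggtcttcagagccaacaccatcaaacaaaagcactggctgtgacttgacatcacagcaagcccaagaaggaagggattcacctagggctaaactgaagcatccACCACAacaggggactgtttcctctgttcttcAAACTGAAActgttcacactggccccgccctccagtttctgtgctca
The motifs searched on both strands, over 250 bases before and 50 after the start, were E2F (TTTCGCGC and TTTGGCGC), the CCAAT box (CCAAT), AP-1 (TGACTCA), CRE (TGACGTCA), an interferon stimulated element (TTTCNNTTT), the E-box of Myc (CACGTG), the site of GATA factors (AGATAA), the site of ETS factors (CCGGAAGT), STAT (TTCNNNGAA) and RUNX (TGTGGT), and the matches shown do not overlap. A RUNX match starts 145 bases before the start of Gimap4, 95 before that of Gimap1 and 79 before that of Gimap7, always on the minus strand. STAT letters begin 234 bases before the start of Gimap6, and Gimap7 holds another STAT match 40 bases after its start, outside the stretch printed, and the interferon element 47 bases before it. CCAAT letters lie 221 bases before Gimap1 and 207 before Gimap6. Over the 9 Gimap promoters in the table, STAT letters occurred in 4 (44.4%, against 8.3% of all 32851 promoters), RUNX letters in 3 (33.3% against 16.8%), CCAAT in 3 (33.3% against 37.4%) and the interferon element in 1 (11.1% against 10.6%). These matches describe the letters only, and 9 promoters of neighbouring, related genes are few.

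Gimap4 itself was at 4.98 and 4.88 in VSEL and 11.88, 12.45 and 12.55 in HSC, near background in both VSEL libraries and bright in all HSC libraries, a difference of -7.36 ± 0.25 (SE) (164-fold, adjusted p = 0.00265), and its second probe set was called the same way. Gimap9 was at 3.38 and 3.53 in VSEL and 9.43, 9.86 and 9.50 in HSC (70.8-fold, adjusted p = 0.00214), Gimap7 at 4.71 and 4.38 in VSEL and 10.69, 9.54 and 11.01 in HSC (58.4-fold, adjusted p = 0.0132) and Gimap3 at 6.69 and 6.51 in VSEL and 13.20, 11.95 and 11.81 in HSC (52.8-fold, adjusted p = 0.0131). Gimap8 followed at 4.38 and 4.44 in VSEL and 9.68, 9.07 and 9.98 in HSC (36.0-fold, adjusted p = 0.00654). Only HSC held these 5 genes above 7. Gimap6 was lower by less, at 10.88 and 10.19 in VSEL and 12.73, 13.22 and 13.38 in HSC (5.99-fold, adjusted p = 0.0296), and both VSEL libraries stayed far above its ESC level of 4.50. Its second, dimmer probe set was called lower too (adjusted p = 0.0156). Gimap1 split the VSEL libraries, at 9.93 and 4.76 in VSEL and 10.97, 10.90 and 10.36 in HSC, and missed the threshold (adjusted p = 0.249), and Gimap5 stayed near background everywhere, at 5.19 and 4.94 in VSEL and 5.64, 4.57 and 4.48 in HSC (adjusted p = 0.802). In all, 6 of 8 members (75.0%) were lower and none higher, with a family median of -5.45, against 7.84% of all genes and a median of 0.22. For Gimap, leaving out VSEL 1, VSEL 2+3, HSC 1, HSC 2 and HSC 3 in turn gave 4, 3, 4, 5 and 5 lower members. Gimap4 and Gimap9 kept their calls in every alternative. Gimap7 lost its call without VSEL 1, VSEL 2+3 or HSC 1 (adjusted p up to 0.0658) and in 1 other alternative (at 0.0534). Gimap3 lost its call without VSEL 1 or VSEL 2+3 (adjusted p up to 0.0657). The other probe set of Gimap7 differed in the opposite direction and was not called. It lay at or under background, at 4.23 and 4.76 in VSEL and 3.83, 4.32 and 4.38 in HSC. Gimap genes are strongly transcribed in T cells, and the T and NK marker list was lower in both VSEL libraries too. The part of T cell content in the Gimap differences was not tested.

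**Figure D4:**
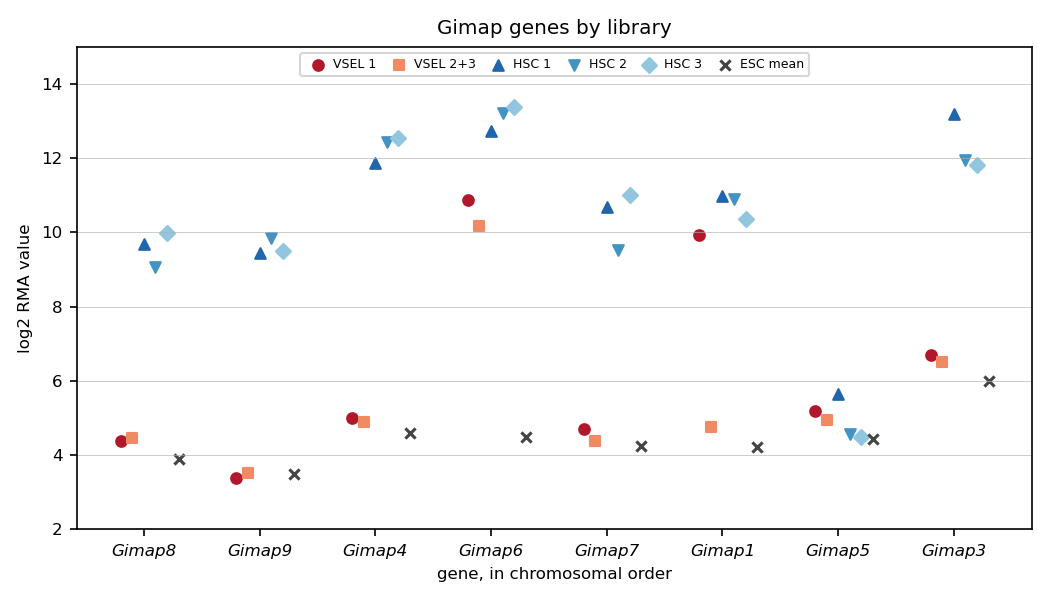
Log2 values of the 8 measured Gimap genes in each library, ordered by position on chromosome 6. Circles and squares are the 2 VSEL libraries, triangles and diamonds the 3 HSC libraries and crosses the ESC mean. HSC values lie between 9.07 and 13.38 except for Gimap5, while VSEL exceeds 7 only for Gimap6 and, in VSEL 1, for Gimap1.

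Beyond Gimap, 74 families were counted in all and 27 had at least 4 members, or 25% of 4 or more, called. Lower members outnumbered higher ones in 25 of these 27, as they did among all genes (5.31% lower against 2.53% higher). The family median lay below the median of all genes in 55 of the 74. Shares of members called are therefore read against 7.84% of all genes, or 16.0% of the genes with a mean of at least 8, and a share close to these says nothing about the family. Of the 27, 26 are described. Every called member named below had VSEL and HSC libraries that did not overlap, as had every gene called.

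**Figure D5:**
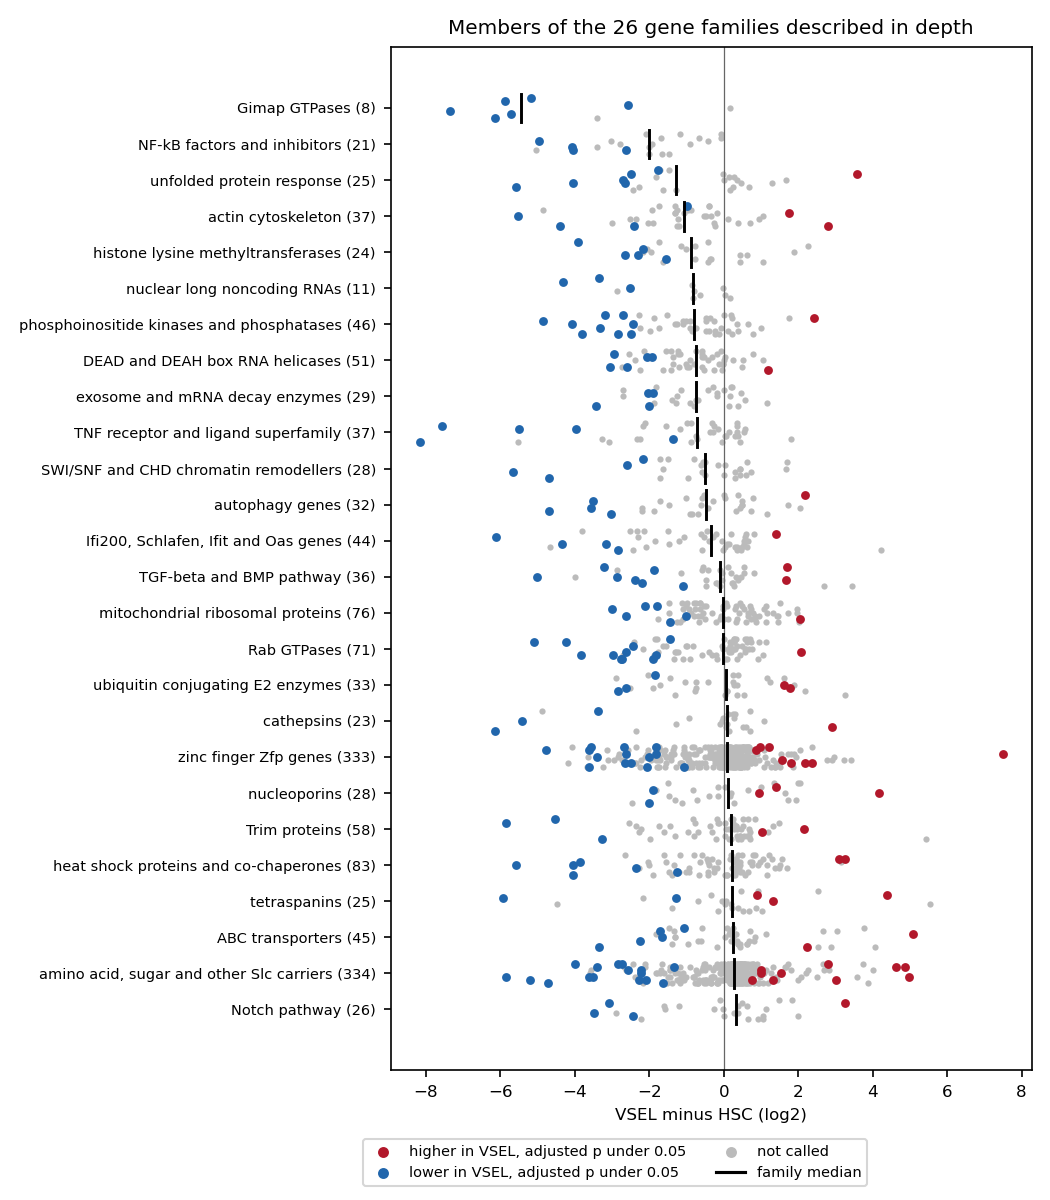
Difference between VSEL and HSC (log2, positive where VSEL is higher) for every measured member of 26 families, ordered by family median (black bars), with the number measured in parentheses. Red and blue points were called higher and lower at a limma adjusted p under 0.05 and grey points were not called. The Gimap median is at -5.45 and the NF-kB median at -2, and the other medians lie between -1.29 and 0.34.

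Receptors and ligands of the TNF family were lower where they were called: 5 of 37 (13.5%), with none higher. Cd27, a costimulatory receptor of T cells that the T lineage list also holds, was at 3.29 and 3.21 in VSEL and 11.31, 11.74 and 11.21 in HSC (288-fold, adjusted p = 0.00185). Fasl, the death ligand of cytotoxic lymphocytes, was at 3.93 and 3.48 in VSEL and 10.37, 11.49 and 11.93 in HSC (189-fold, adjusted p = 0.00872). Both were at background in VSEL and in ESC. Tnfrsf18, known as GITR, was at 5.42 and 5.13 in VSEL and 10.14, 11.24 and 10.93 in HSC (45.3-fold, adjusted p = 0.00847), and Tnfrsf25, known as death receptor 3, at 5.36 and 4.76 in VSEL and 9.55, 8.16 and 9.43 in HSC (15.8-fold, adjusted p = 0.0339). For TNF genes, the counts without each library in the same order were 4, 5, 4, 5 and 3. Cd27, Fasl and Tnfrsf18 kept their calls in every alternative. Tnfrsf25 lost its call without VSEL 1, VSEL 2+3, HSC 1 or HSC 3 (adjusted p up to 0.107) and in 2 other alternatives (up to 0.0931).

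Downstream of these receptors, 4 of 21 NF-kB factors, regulators and inhibitors were lower (19%) and none higher, and the family median was -2. Traf1, an adaptor of TNF receptors, was at 4.28 and 4.73 in VSEL and 9, 9.77 and 9.68 in HSC (31.4-fold, adjusted p = 0.00732). Birc3, a ubiquitin ligase of the same complexes, was at 5.25 and 4.61 in VSEL and 8.68, 9.32 and 8.94 in HSC (16.6-fold, adjusted p = 0.00999), and Cyld, a deubiquitinase that limits the pathway, at 5.18 and 6.13 in VSEL and 9.77, 9.70 and 9.73 in HSC (16.8-fold, adjusted p = 0.0106). Nfkbib, an inhibitor that holds NF-kB in the cytoplasm, was at 8.22 and 8.58 in VSEL and 10.90, 11.20 and 10.95 in HSC (6.13-fold, adjusted p = 0.00872). The members called thus include both activators and inhibitors. The NF-kB subunits Rela, Relb and Rel did not pass the test, with differences of -0.07, -2 and -1.69. For NF-kB genes, leaving out the libraries in turn gave 8, 5, 3, 4 and 4, so the count was at its highest without VSEL 1. Birc3 and Nfkbib kept their calls in every alternative. Traf1 lost its call in 1 alternative (adjusted p = 0.0891). Cyld lost its call without HSC 1 or HSC 3 (adjusted p up to 0.0578). 

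Among interferon-inducible genes of the Ifi200, Schlafen, Ifit and Oas families, 4 of 44 were lower and Ifi209 alone was higher. Ifit1bl1 was at 3.76 and 3.58 in VSEL and 9.53, 9.85 and 10.01 in HSC (69.7-fold, adjusted p = 0.00236) and Ifit3, an antiviral protein that binds with other Ifit members, at 6.00 and 6.15 in VSEL and 8.71, 9.44 and 8.58 in HSC (7.14-fold, adjusted p = 0.0223). Mx1, an antiviral GTPase, was at 3.94 and 4.47 in VSEL and 8.30, 8.74 and 8.59 in HSC (20.2-fold, adjusted p = 0.00575). Ifitm10, which entered the family by its name, was at 6.22 and 6.03 in VSEL and 9.63, 8.81 and 9.38 in HSC (8.88-fold, adjusted p = 0.015). All 4 were lower in each VSEL library than in any HSC library. The Trim proteins, ubiquitin ligases with a tripartite motif, had 3 lower and 2 higher members of 58. The lower ones included the neighbouring paralogs Trim30a at 3.66 and 3.58 in VSEL and 10.03, 9.11 and 9.27 in HSC (57.6-fold, adjusted p = 0.00592) and Trim30d at 3.47 and 3.77 in VSEL and 7.65, 8.90 and 7.87 in HSC (23-fold, adjusted p = 0.0165), whose probe sets may share sequence. For the first family the counts of lower members without each library were 2, 6, 3, 7 and 2, and for Trim 3, 2, 1, 3 and 1 lower and 1, 1, 0, 0 and 0 higher, where the quantile normalization gave 3 higher and 3 lower. Their shares called, 11.4% and 8.62%, lie near the share of all genes. Ifit1bl1, Mx1 and Trim30a kept their calls in every alternative. Ifit3 lost its call without VSEL 1, VSEL 2+3, HSC 1 or HSC 3 (adjusted p up to 0.0927) and in 2 other alternatives (up to 0.0723). Ifitm10 lost its call without VSEL 1, VSEL 2+3, HSC 1 or HSC 3 (adjusted p up to 0.0673) and in 1 other alternative (at 0.0553). Trim30d lost its call without VSEL 1, VSEL 2+3, HSC 1 or HSC 3 (adjusted p up to 0.0799) and in 1 other alternative (at 0.0595). The other probe set of Trim30d differed in the opposite direction and was not called.

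The TGF-beta and BMP pathway had 7 lower and 2 higher members of 36 (25%). Its intracellular repressors Skil (6.02 and 4.90 in VSEL and 9.55, 10.61 and 11.28 in HSC) and Ski (7.42 and 7.38 in VSEL and 9.45, 10.39 and 9.55 in HSC) were lower (32.5-fold and 5.27-fold, adjusted p = 0.033 and 0.0397). The signal transducer Smad3 was at 7.23 and 7.30 in VSEL and 10.90, 9.95 and 10.63 in HSC (9.35-fold, adjusted p = 0.0179) and the inhibitory Smad7 at 7.30 and 7.41 in VSEL and 10.12, 10.61 and 9.94 in HSC (7.32-fold, adjusted p = 0.013). Of the extracellular and receptor genes, Bmp4 (6.78 and 6.77 in VSEL and 4.84, 5.18 and 5.18 in HSC) and its receptor Bmpr1a (6.96 and 7.16 in VSEL and 5.04, 5.37 and 5.74 in HSC) were higher (adjusted p = 0.0155 and 0.044). Their ESC means were higher still, 8.79 and 8.19. Bmp4 and Bmpr1a were named after their values were seen. These counts were fragile: lower members numbered 0, 1, 0, 4 and 2 and higher ones 2, 0, 1, 0 and 0 without each library in turn, so neither Bmp4 nor Bmpr1a was called without VSEL 2+3, HSC 2 or HSC 3. The quantile normalization gave 4 higher and 4 lower, and centring on ribosomal proteins 3 higher and 3 lower. Skil lost its call without VSEL 1, VSEL 2+3, HSC 1, HSC 2 or HSC 3 (adjusted p up to 0.104) and in 2 other alternatives (up to 0.0616). Ski lost its call without VSEL 1, VSEL 2+3, HSC 1 or HSC 3 (adjusted p up to 0.121) and in 6 other alternatives (up to 0.0889). Smad3 lost its call without VSEL 1, VSEL 2+3, HSC 1 or HSC 3 (adjusted p up to 0.0821) and in 2 other alternatives (up to 0.106). Smad7 lost its call without VSEL 1, VSEL 2+3 or HSC 1 (adjusted p up to 0.0652) and in 1 other alternative (at 0.052). The remaining probe sets of Smad3 differed mostly or only in the opposite direction, and none of these was called.

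In the Notch pathway, 3 of 26 genes were lower and 1 was higher (15.4%, and 28.6% of the 14 with a mean of at least 8). Psen2, a catalytic subunit of gamma-secretase, was at 5.88 and 5.80 in VSEL and 9.15, 9.43 and 9.37 in HSC (11.1-fold, adjusted p = 0.00345). Dtx1, a ubiquitin ligase induced by Notch signals, was at 7.86 and 7.68 in VSEL and 11.07, 10.95 and 10.52 in HSC (8.45-fold, adjusted p = 0.00877), and Adam17, the sheddase known from TNF release, at 7.40 and 7.16 in VSEL and 9.92, 9.60 and 9.63 in HSC (5.41-fold, adjusted p = 0.00852). The receptor Notch3 was higher, at 8.08 and 8.64 in VSEL and 4.55, 5.25 and 5.50 in HSC and 8.94 in ESC (9.59-fold, adjusted p = 0.0238). For Notch genes, the lower counts without each library were 4, 4, 3, 3 and 3. Psen2 and Dtx1 kept their calls in every alternative. Adam17 lost its call in 1 alternative (adjusted p = 0.0626). Notch3 lost its call without VSEL 1, VSEL 2+3, HSC 1, HSC 2 or HSC 3 (adjusted p up to 0.0823) and in 2 other alternatives (up to 0.0841). Further probe sets of Psen2 and Dtx1 differed mostly or only in the opposite direction, and none of these was called.

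Kinases and phosphatases of phosphoinositides, the membrane lipids that recruit signalling and trafficking proteins, had 9 lower and 1 higher of 46 members (21.7%). The phosphatases Inpp5b (6.42 and 5.72 in VSEL and 10.91, 11.60 and 10.29 in HSC) and Inpp5k (7.19 and 6.85 in VSEL and 10.31, 10.11 and 10.66 in HSC) were lower (29.2-fold and 10.1-fold, adjusted p = 0.0168 and 0.00846). The kinases Pip4k2a (7.14 and 6.09 in VSEL and 10.43, 10.50 and 11.19 in HSC) and Pik3ca, the catalytic subunit alpha of phosphoinositide 3-kinase (4.38 and 4.65 in VSEL and 8.03, 8.12 and 8.84 in HSC), were lower as well (17.0-fold and 14.1-fold, adjusted p = 0.0205 and 0.0118). For this family, 6, 4, 2, 4 and 4 members were lower without each library, and 1 higher and 5 lower after centring on ribosomal proteins. Inpp5b lost its call without VSEL 1, VSEL 2+3 or HSC 1 (adjusted p up to 0.0795) and in 1 other alternative (at 0.0527). Inpp5k lost its call in 1 alternative (adjusted p = 0.0549). Pip4k2a lost its call without VSEL 2+3, HSC 1, HSC 2 or HSC 3 (adjusted p up to 0.078). Pik3ca lost its call without VSEL 1 or VSEL 2+3 (adjusted p up to 0.0624) and in 2 other alternatives (up to 0.821). Other probe sets of Pik3ca differed mostly or only in the opposite direction, and none of these was called.

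The actin cytoskeleton had 4 lower and 2 higher of 37 members (16.2%). Of its 31 members with a mean of at least 8, 16.1% were called, near the 16.0% of all such genes. Was, the Wiskott-Aldrich protein of blood cells and a gene of the leukocyte list, was at 4.73 and 4.61 in VSEL and 10.42, 10.82 and 9.38 in HSC (46.3-fold, adjusted p = 0.0132), and its partner Wipf1 at 6.60 and 6.48 in VSEL and 10.96, 11.30 and 10.57 in HSC (21.1-fold, adjusted p = 0.0063). Diaph1, a formin, was at 8.36 and 7.96 in VSEL and 10.21, 10.95 and 10.54 in HSC (5.30-fold, adjusted p = 0.0264). Cap1, which recycles actin monomers, was higher at 8.35 and 8.05 in VSEL and 5.11, 5.73 and 5.36 in HSC and 10.66 in ESC (6.95-fold, adjusted p = 0.0131). The VSEL libraries differed for this family, whose median was 8.54 in VSEL 1 and 10.72 in VSEL 2+3, against 10.92 to 11.28 in HSC. Without VSEL 2+3 there were 10 lower members and without the other libraries 1 or 2, and cyclic loess and centring on ribosomal proteins each gave 2 higher and 2 lower. Wipf1 kept its call in every alternative. Was lost its call without VSEL 1, VSEL 2+3 or HSC 1 (adjusted p up to 0.0671) and in 1 other alternative (at 0.054). Diaph1 lost its call without VSEL 1, VSEL 2+3, HSC 1, HSC 2 or HSC 3 (adjusted p up to 0.0934) and in 4 other alternatives (up to 0.268). Cap1 lost its call without VSEL 1 or HSC 3 (adjusted p up to 0.0629) and in 1 other alternative (at 0.0516).

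Rab GTPases, which direct vesicles between membranes, had 11 lower and 1 higher of 71 members (16.9%). Rab37, a Rab of secretory granules, was at 5.06 and 4.99 in VSEL and 9.25, 9.29 and 9.22 in HSC, with little spread within either group, -4.23 ± 0.11 (SE) (18.7-fold, adjusted p = 0.00185). Rab33b, a Golgi Rab, was at 4.67 and 4.34 in VSEL and 8.62, 8.10 and 8.27 in HSC (14.1-fold, adjusted p = 0.00637), and Rab8b at 6.53 and 5.19 in VSEL and 10.80, 11.39 and 10.71 in HSC (34.4-fold, adjusted p = 0.016). Rab10os and Rab26os are antisense transcripts that entered by name and carry no Rab protein. Without each library the lower count of this family was 7, 8, 6, 10 and 5 and the higher count 0, 1, 0, 0 and 0. Rab37 and Rab33b kept their calls in every alternative. Rab8b lost its call without HSC 1, HSC 2 or HSC 3 (adjusted p up to 0.0742). The other probe set of Rab8b differed in the opposite direction and was not called. It lay near background, at 4.27 and 4.09 in VSEL and 3.81, 3.87 and 4.68 in HSC.

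Along the path to lysosomes, 3 of 23 cathepsins were lower and 1 was higher (17.4%, and 33.3% of the 12 with a mean of at least 8). Ctsw, a cathepsin of cytotoxic lymphocytes, was at 6.60 and 6.86 in VSEL and 12.40, 12.94 and 13.33 in HSC (71.4-fold, adjusted p = 0.00489), and Ctso at 3.64 and 3.71 in VSEL and 8.67, 9.41 and 9.19 in HSC (42.7-fold, adjusted p = 0.00432). Ctsc, which activates granule proteases, was at 6.47 and 6.28 in VSEL and 10.62, 9.05 and 9.57 in HSC (10.4-fold, adjusted p = 0.0449). Ctse, an aspartic protease, ran the other way at 14.12 and 12.96 in VSEL and 10.67, 10.56 and 10.66 in HSC and only 5.09 in ESC (7.52-fold, adjusted p = 0.0333). For cathepsins the lower counts without each library were 2, 3, 3, 2 and 2. Of 32 autophagy genes, 4 were lower and 1 higher. They were Atg3, the conjugating enzyme that lipidates LC3 (7.38 and 7.64 in VSEL and 11.35, 10.83 and 11.07 in HSC), Sqstm1, a cargo receptor (8.36 and 8.22 in VSEL and 11.56, 11.57 and 12.28 in HSC), Uvrag (6.81 and 5.50 in VSEL and 10.93, 11.05 and 10.61 in HSC) and the lipid transfer protein Atg2a (7.25 and 6.94 in VSEL and 9.77, 10.14 and 10.47 in HSC). These were 11.9-fold, 11.4-fold, 26.1-fold and 8.18-fold lower (adjusted p = 0.00637, 0.0115, 0.0157 and 0.0131), and without each library 4, 2, 3, 3 and 3 autophagy genes were lower and none was higher. Ctsw, Ctso and Atg3 kept their calls in every alternative. Ctsc lost its call without VSEL 1, VSEL 2+3, HSC 2 or HSC 3 (adjusted p up to 0.127) and in 7 other alternatives (up to 0.0967). Ctse lost its call without HSC 1, HSC 2 or HSC 3 (adjusted p up to 0.116) and in 1 other alternative (at 0.0563). Sqstm1 lost its call without VSEL 1 or VSEL 2+3 (adjusted p up to 0.0585). Uvrag lost its call without HSC 1, HSC 2 or HSC 3 (adjusted p up to 0.077). Atg2a lost its call without VSEL 1, VSEL 2+3 or HSC 2 (adjusted p up to 0.0572). The remaining probe sets of Ctso and Atg3 differed in the opposite direction, and neither was called. Both lay at or under background in every VSEL and HSC library, Ctso at 3.76 to 4.45 and Atg3 at 3.22 to 3.38.

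Genes of the unfolded protein response, which adjusts the endoplasmic reticulum to its load of secretory proteins, had 6 lower and 1 higher of 25 members (28%), with a median of -1.29. The co-chaperones Dnajb9 (4.77 and 5.98 in VSEL and 10.68, 10.95 and 11.22 in HSC) and Dnajc3 (5.84 and 6.63 in VSEL and 10.30, 10.79 and 9.78 in HSC) were 47.6-fold and 16.6-fold lower (adjusted p = 0.0104 and 0.0188). Edem1, which directs misfolded glycoproteins to degradation, was at 7.36 and 7.54 in VSEL and 10.52, 10.02 and 9.96 in HSC (6.58-fold, adjusted p = 0.0125), and the sensor kinase Ern1 was called too. Chac1, a glutathione-degrading enzyme induced by the response, was higher at 8.91 and 8.85 in VSEL and 4.89, 5.59 and 5.41 in HSC and 11.03 in ESC (12-fold, adjusted p = 0.00877). The chaperones Calr, Canx and Hsp90b1 did not pass the test, with differences of 0.00, 0.14 and 0.18. Without each library, 2, 3, 3, 3 and 5 members were lower. Dnajb9 lost its call without HSC 1 (adjusted p up to 0.0522). Dnajc3 lost its call without VSEL 1, VSEL 2+3, HSC 1 or HSC 2 (adjusted p up to 0.0853) and in 1 other alternative (at 0.0595). Edem1 lost its call without VSEL 1 or VSEL 2+3 (adjusted p up to 0.0628). Chac1 lost its call without VSEL 1 (adjusted p up to 0.0523).

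Among all 83 heat shock proteins and co-chaperones, 6 were lower and 2 higher (9.64%), near the share of all genes, and the quantile normalization gave 6 higher and 5 lower. Dnajc15, a co-chaperone of the mitochondrial inner membrane, was at 7.29 and 8.01 in VSEL and 11.58, 11.82 and 11.73 in HSC (16.7-fold, adjusted p = 0.00743), and Dnajc10, a reductase of the endoplasmic reticulum, was higher at 10.45 and 10.45 in VSEL and 7.67, 7.11 and 6.76 in HSC (9.64-fold, adjusted p = 0.0155). Lower counts without each library were 5, 4, 2, 3 and 4, and higher counts 2, 3, 2, 1 and 2. Ubiquitin-conjugating enzymes had 3 lower and 2 higher of 33 members (15.2%). Of the 23 with a mean of at least 8, 17.4% were called, near the 16.0% of all such genes. Ube2q1 was at 7.92 and 7.74 in VSEL and 10.66, 10.47 and 10.85 in HSC (7.10-fold, adjusted p = 0.00658) and Ube2e1 at 7.58 and 7.50 in VSEL and 10.07, 10.46 and 9.95 in HSC (6.14-fold, adjusted p = 0.0102), while Ube2c, the partner of the anaphase-promoting complex in mitosis, was higher at 13.85 and 13.55 in VSEL and 11.66, 12.09 and 11.97 in HSC (3.46-fold, adjusted p = 0.0225) and at 13.69 in ESC. Centring on ribosomal proteins gave 2 higher and 1 lower for this family, cyclic loess 2 higher and 2 lower, and without each library 1, 2, 1, 2 and 2 were lower and 0, 0, 1, 1 and 0 higher. Dnajc15 and Ube2q1 kept their calls in every alternative. Dnajc10 lost its call without VSEL 1, VSEL 2+3 or HSC 2 (adjusted p up to 0.0746) and in 1 other alternative (at 0.0507). Ube2e1 lost its call without VSEL 1 or HSC 1 (adjusted p up to 0.053) and in 2 other alternatives (up to 0.111). Ube2c lost its call without VSEL 1, VSEL 2+3, HSC 1, HSC 2 or HSC 3 (adjusted p up to 0.083).

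Histone lysine methyltransferases had 5 lower and no higher members of 24 (20.8%). Kmt2b (8.45 and 8.25 in VSEL and 10.40, 10.45 and 10.67 in HSC) and Kmt2d (7.20 and 5.53 in VSEL and 10.43, 10.50 and 9.95 in HSC), which methylate lysine 4 of histone H3, were 4.47-fold and 15.2-fold lower (adjusted p = 0.00881 and 0.0401). Ehmt2, known as G9a, was at 8.65 and 7.82 in VSEL and 11.12, 10.94 and 10.61 in HSC (6.32-fold, adjusted p = 0.0284), and its partner Ehmt1 was called lower too. Centring on ribosomal proteins left 1 higher and 0 lower, so the count rests on the scaling. Of 28 SWI/SNF and CHD remodellers, 4 were lower and none higher (14.3%). Of the 18 with a mean of at least 8, 16.7% were called, near the 16.0% of all such genes. Smarca2, an ATPase of the SWI/SNF complex, was at 3.70 and 3.45 in VSEL and 8.97, 10.41 and 8.35 in HSC (50.7-fold, adjusted p = 0.0266), and Chd3, an ATPase of the NuRD complex, at 7.53 and 6.95 in VSEL and 11.80, 11.57 and 12.43 in HSC (25.8-fold, adjusted p = 0.00988). Lower counts without each library were 4, 4, 1, 2 and 3 for the methyltransferases and 2, 2, 1, 3 and 2 for the remodellers, of which 2 were higher without VSEL 2+3. Kmt2b lost its call in 1 alternative (adjusted p = 0.0776). Kmt2d lost its call without HSC 1, HSC 2 or HSC 3 (adjusted p up to 0.133) and in 4 other alternatives (up to 0.0725). Ehmt2 lost its call without VSEL 2+3, HSC 1, HSC 2 or HSC 3 (adjusted p up to 0.102) and in 2 other alternatives (up to 0.0844). Smarca2 lost its call without VSEL 1, VSEL 2+3 or HSC 1 (adjusted p up to 0.0991) and in 2 other alternatives (up to 0.0755). Chd3 lost its call without HSC 1 (adjusted p up to 0.0531). Further probe sets of Kmt2d and Ehmt2 differed mostly or only in the opposite direction, and none of these was called.

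RNA helicases of the DEAD and DEAH box had 5 lower and 1 higher of 51 members (11.8%). Of the 33 with a mean of at least 8, 18.2% were called, near the 16.0% of all such genes. Dhx9 was at 7.46 and 7.51 in VSEL and 10.11, 9.99 and 10.13 in HSC, tight in both groups (6.02-fold, adjusted p = 0.00391), Dhx57 at 5.58 and 5.58 in VSEL and 8.36, 8.87 and 8.40 in HSC (7.79-fold, adjusted p = 0.00847) and Dhx36, which unwinds G-quadruplexes, at 4.86 and 5.06 in VSEL and 7.79, 8.38 and 7.92 in HSC (8.39-fold, adjusted p = 0.0099). Of 29 exosome and decay enzymes, 4 were lower and none higher. Xrn2, a nuclear exonuclease, was at 5.73 and 6.40 in VSEL and 9.22, 9.53 and 9.72 in HSC (10.7-fold, adjusted p = 0.0121), and the decapping cofactor Dcp1a at 6.90 and 7.45 in VSEL and 9.34, 9.04 and 9.14 in HSC (4.00-fold, adjusted p = 0.0229). No decay enzyme was called without HSC 2 or HSC 3, 2 were lower without each other library, and 1 was higher without VSEL 2+3. For the helicases the lower counts without each library were 2, 6, 3, 6 and 5, and none was higher. Dhx57 kept its call in every alternative. Dhx9 lost its call in 2 alternatives (adjusted p up to 0.269). Dhx36 lost its call without VSEL 1 (adjusted p up to 0.0539) and in 1 other alternative (at 0.0872). Xrn2 lost its call without HSC 2 or HSC 3 (adjusted p up to 0.0522) and in 1 other alternative (at 0.0671). Dcp1a lost its call without VSEL 1, HSC 1, HSC 2 or HSC 3 (adjusted p up to 0.0861) and in 5 other alternatives (up to 0.103). Other probe sets of Dhx36 differed mostly or only in the opposite direction, and none of these was called.

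Among 11 nuclear long noncoding RNAs, 3 were lower (27.3%) and none higher, all of them hosts of small nucleolar RNAs. Snhg1 was at 7.87 and 8.16 in VSEL and 11.77, 12.39 and 12.86 in HSC, a difference of -4.32 ± 0.37 (adjusted p = 0.013), and all 4 of its other probe sets were called lower too. Snhg12 was at 7.50 and 7.81 in VSEL and 10.89, 11.32 and 10.83 in HSC (10.2-fold, adjusted p = 0.00772) and Snhg8 at 9.82 and 8.74 in VSEL and 11.47, 11.97 and 11.99 in HSC (5.77-fold, adjusted p = 0.0482). Their ESC means of 10.71, 10.05 and 10.70 lay between the VSEL and HSC levels. Without each library 3, 1, 2, 1 and 2 of these RNAs were called lower. Snhg12 kept its call in every alternative. Snhg1 lost its call without VSEL 1, VSEL 2+3 or HSC 2 (adjusted p up to 0.0661) and in 1 other alternative (at 0.0507). Snhg8 lost its call without VSEL 2, VSEL 2+3, HSC 1, HSC 2 or HSC 3 (adjusted p up to 0.14) and in 4 other alternatives (up to 0.0939).

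Nucleoporins, the proteins of the nuclear pore, had 3 higher and 2 lower of 28 members (17.9%). Of the 25 with a mean of at least 8, 16.0% were called, the share of all such genes. Nup133, a scaffold subunit, was at 11.05 and 11.32 in VSEL and 7.25, 6.46 and 7.31 in HSC and 10.87 in ESC (18.1-fold, adjusted p = 0.0107). Its 5 other probe sets all differed the same way, but only 2 were called. The rest lay near background with differences of 0.09 to 0.38. Sec13, a subunit of the pore and of COPII coats, was at 11.68 and 11.60 in VSEL and 10.29, 10.25 and 10.19 in HSC (2.63-fold, adjusted p = 0.0121). Nup214, on the cytoplasmic side, was lower at 7.27 and 7.77 in VSEL and 9.29, 9.61 and 9.37 in HSC (3.74-fold, adjusted p = 0.0242). Higher nucleoporins numbered 1, 2, 0, 1 and 1 without each library and lower ones 0, 1, 0, 0 and 0, while the quantile normalization and centring on ribosomal proteins each gave 3 higher and 0 lower. Mitochondrial ribosomal proteins had 6 lower and 1 higher of 76 (9.21%), with a median of -0.01. Of the 73 with a mean of at least 8, 9.59% were called, below the 16.0% of all such genes. The median difference of all such genes was -0.58. Mrps33 was at 7.92 and 7.73 in VSEL and 9.83, 9.97 and 10.00 in HSC (4.30-fold, adjusted p = 0.00732), Mrpl9 at 6.49 and 7.36 in VSEL and 9.95, 10.38 and 9.48 in HSC (8.06-fold, adjusted p = 0.0348) and Mrpl55 higher at 11.75 and 11.17 in VSEL and 9.54, 9.65 and 9.05 in HSC (4.13-fold, adjusted p = 0.0395). Without each library 3, 2, 1, 2 and 1 of these proteins were lower and none was higher, and centring on ribosomal proteins gave 2 higher and 2 lower. Nup133 lost its call without VSEL 1, VSEL 2+3 or HSC 1 (adjusted p up to 0.0545). Sec13 lost its call without VSEL 1, HSC 1, HSC 2 or HSC 3 (adjusted p up to 0.0591) and in 1 other alternative (at 0.0695). Nup214 lost its call without VSEL 1, HSC 1, HSC 2 or HSC 3 (adjusted p up to 0.0876) and in 5 other alternatives (up to 0.729). Mrps33 lost its call in 1 alternative (adjusted p = 0.0804). Mrpl9 lost its call without VSEL 1, VSEL 2+3, HSC 1, HSC 2 or HSC 3 (adjusted p up to 0.121) and in 3 other alternatives (up to 0.0815). Mrpl55 lost its call without VSEL 1, VSEL 2+3, HSC 1, HSC 2 or HSC 3 (adjusted p up to 0.119) and in 3 other alternatives (up to 0.0899). The other probe set of Nup214 differed in the opposite direction and was not called.

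Tetraspanins, membrane proteins that organise receptors, had 3 higher and 2 lower of 25 members. Tspan33 was at 11.19 and 11.57 in VSEL and 6.58, 7.75 and 6.64 in HSC and 6.25 in ESC (21.0-fold, adjusted p = 0.0178), and Tspan32, a tetraspanin of blood cells, ran the other way at 5.31 and 4.46 in VSEL and 11.16, 10.64 and 10.61 in HSC (60.7-fold, adjusted p = 0.00631). Cd82 was lower by less, at 11.31 and 11.58 in VSEL and 12.64, 12.86 and 12.70 in HSC (2.44-fold, adjusted p = 0.0266). Higher tetraspanins numbered 0, 0, 0, 1 and 1 without each library and lower ones 1, 2, 1, 1 and 1, and centring on ribosomal proteins gave 1 higher and 1 lower. ABC transporters had 2 higher and 5 lower of 45 (15.6%, and 26.3% of the 19 with a mean of at least 8). Besides Abcb4, Abce1, a ribosome recycling factor, was higher at 11.54 and 11.47 in VSEL and 8.96, 9.50 and 9.37 in HSC and 11.59 in ESC (4.68-fold, adjusted p = 0.0153). Abca1, the exporter of cholesterol to lipoproteins, was lower at 4.94 and 5.58 in VSEL and 8.51, 8.91 and 8.41 in HSC (10.2-fold, adjusted p = 0.0126). The lower count of ABC transporters was 2, 2, 1, 1 and 3 and the higher count 1, 1, 1, 3 and 1 without each library, and centring on ribosomal proteins turned the balance to 3 higher and 1 lower, while the quantile normalization gave 5 higher and 5 lower. Tspan32 kept its call in every alternative. Tspan33 lost its call without VSEL 1, VSEL 2+3, HSC 1 or HSC 3 (adjusted p up to 0.0757) and in 1 other alternative (at 0.064). Cd82 lost its call without VSEL 1, VSEL 2+3, HSC 1, HSC 2 or HSC 3 (adjusted p up to 0.0957) and in 5 other alternatives (up to 0.147). Abce1 lost its call without VSEL 1, VSEL 2+3 or HSC 3 (adjusted p up to 0.072) and in 2 other alternatives (up to 0.439). Abca1 lost its call without HSC 1 (adjusted p up to 0.0614). The remaining probe sets of Tspan32 and Cd82 differed mostly or only in the opposite direction, and none of these was called.

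Solute carriers formed the largest family with 334 measured members, 10 higher and 16 lower (7.78%), beside 7.84% of all genes. The quantile normalization turned the balance to 31 higher and 12 lower, and centring on ribosomal proteins to 12 higher and 10 lower. Without each library the higher count was 8, 8, 2, 1 and 2 and the lower count 9, 9, 7, 11 and 10. Slc9a9, a sodium-proton exchanger of endosomes, was at 3.57 and 3.52 in VSEL and 9.03, 9.72 and 9.42 in HSC (57.7-fold, adjusted p = 0.00345), and Slc25a24, a mitochondrial carrier of ATP-magnesium and phosphate, at 3.75 and 3.60 in VSEL and 9.31, 8.20 and 9.15 in HSC (37.0-fold, adjusted p = 0.0101). Slc25a37, the mitochondrial iron importer mitoferrin of erythroid cells, was among the higher ones at 12.84 and 11.74 in VSEL and 9.74, 9.19 and 8.93 in HSC (adjusted p = 0.0427), beside the erythroid Slc4a1 given above. The higher Slc7a3, a carrier of cationic amino acids, was at 8.28 and 8.34 in VSEL and 6.12, 5.27 and 5.10 in HSC (adjusted p = 0.0315) and 10.81 in ESC. These 2 genes were chosen after their values were seen. Slc9a9 kept its call in every alternative. Slc25a24 lost its call without VSEL 1 or VSEL 2+3 (adjusted p up to 0.0558).

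The zinc finger Zfp genes had 8 higher and 14 lower of 333 members (6.61%), again near the share of all genes. Zfp42, known as Rex1 and a gene of the pluripotency list, was at 10.46 and 10.50 in VSEL and 3.09, 2.95 and 2.91 in HSC and 13.10 in ESC (181-fold, adjusted p = 0.00171), the largest positive difference of any member of these families. Zfp869 was at 4.69 and 4.57 in VSEL and 8.98, 9.81 and 9.46 in HSC (27.5-fold, adjusted p = 0.00639). Zfp36l2, an RNA-binding protein that promotes mRNA decay and no transcription factor, was at 9.75 and 9.02 in VSEL and 12.84, 12.99 and 13.15 in HSC (12.2-fold, adjusted p = 0.00989). Without each library the lower count was 8, 11, 8, 9 and 12 and the higher count 6, 5, 2, 2 and 2, and the quantile normalization gave 14 higher and 14 lower. Zfp42 and Zfp869 kept their calls in every alternative. Zfp36l2 lost its call without HSC 1 (adjusted p up to 0.0502). Further probe sets of Zfp36l2 differed mostly or only in the opposite direction, and none of these was called.

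In the 47 families not described above, 0 to 3 members were called, 24 higher and 54 lower of 1256 members. In 10 of them none was called: histone genes, aminoacyl-tRNA synthetases, the TCP1 ring complex with prefoldin, septins with annexins, nuclear receptors, cholesterol genes, genes of metal handling, Toll-like receptors with their adaptors, telomere genes and galectins. With so few libraries a gene that was not called may still differ.

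Motif shares of the genes called lay above or below those of measured genes, depending on the motif and the set. ETS letters occurred in 7.47% of 1004 promoters of lower genes and 5.83% of 18109 promoters of measured genes, and RUNX letters in 16.1% and 13.7%. In the 293 promoters of higher genes brighter in ESC than in VSEL, RUNX letters occurred in 8.53%. CCAAT letters occurred in 48.0% of the 179 promoters of the other higher genes, against 37.4% of measured genes. Several starts of a gene count separately, and no test was made of these shares.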

How the data were processed

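The deposited value table holds log2 expression values, which the authors made by RMA with Partek 6.5, per the submitters' processing notes. Which arrays entered the normalization, and its further settings, were not given in the sources used here. Values were used as deposited, VSEL arrays 2 and 3 were averaged, and the 5 libraries were fitted with limma 3.58.1 in R 4.3.3 (lmFit, eBayes, two-sided), VSEL against HSC. The Benjamini-Hochberg adjustment ran over 45037 probe sets, the 64 controls being left out, with calls at an adjusted p under 0.05. The small number of arrays limits the precision. Of the probe sets, 34945 named 1 gene, 932 several and 9160 are unnamed here, and 34741 symbols were updated through RefSeq genes of GRCm38.p6. A gene was read from its one-gene probe set with the highest mean over the 6 arrays, and 9010 of 18193 genes had several. A gene above background means one above the lower quartile of genes.

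Genes named are the 15 with the largest positive and the 15 with the largest negative difference among called genes outside the lineage lists, without clone names and with a mean of at least 8 in the higher group. In each family with at least 4 members, or 25% of 4 or more, called, up to 4 called members with the largest difference and that mean were eligible, and the marker genes were added. Other names (such as Ern1, Ehmt1, Ifi209, Gimap1 and the genes that did not pass) were chosen after their values were seen. The members, families and lists were chosen with earlier results of these data known. Family counts carry no test of the family, and 1 family is not reported here. Promoters span 250 bases before to 50 after the start. The model code was tested on simulated data. The simulation gave every library the spread of the HSC libraries, so it does not cover the wider spread between the VSEL libraries. The 21 alternatives covered the libraries, the replicate block, normalization, filters, gene summary and variance model.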

Additional observations from a re-analysis of the deposited data

How the results depend on the processing

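The main counts were 762 higher and 1673 lower probe sets, and 460 higher and 966 lower genes. With the 3 cell types in 1 fit they were 3603, 2786, 1704 and 1623, and with the 6 arrays kept separate 3443, 3240, 1843 and 1882. A 3' to 5' covariate gave 244, 829, 170 and 496. A new quantile normalization gave 2016 higher probe sets and 1204 higher genes, array weights 482 higher probe sets, and adjustment over 1 probe set a gene 873 higher genes. Centring on ribosomal proteins gave 957 lower probe sets and 561 lower genes. Leaving out 1 library gave 196 to 623 higher and 772 to 1195 lower probe sets. Read as genes, these fits gave 130 to 332 higher and 428 to 763 lower. The lowest counts came without HSC 3 (higher) or HSC 1 (lower) and the highest without VSEL 2+3. Leaving out VSEL array 2 alone, which keeps 5 libraries, gave 813, 1742, 490 and 1012, and leaving out array 3 alone 648, 1528, 406 and 869. The settings without VSEL array 2 or 3 alone were chosen after seeing the data. The replicate block, on 6 separate arrays, gave 610 higher and 1765 lower probe sets and 398 higher and 1019 lower genes. Deviations of like-numbered arrays from their group means correlated at 0.0202, -0.0103 and 0.0231. Because VSEL arrays 2 and 3 are nearly alike, these values cannot tell whether like-numbered arrays share an animal or a sort. Of 132 named genes, 51 kept their call in every setting that tested them. With the mean of a gene's probe sets Nup214 changed sign (0.46, adjusted p = 0.729), as did Exosc1 (0.00, adjusted p = 0.995). The causes were not tested. Signal near background, which was brighter on the VSEL arrays, limits what can be read from dim genes.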
